A study of Mus musculus with 2 samples.

Results

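Endothelial cells of the fatty, inflamed mouse liver that carried no transcript of the central-vein Wnt genes were examined in a droplet single-cell RNA data set of sorted liver cells. A barcode entered the set when it had at least 200 detected genes, at most 10% mitochondrial transcripts, at least 4 unique transcript counts (UMIs) summed over Kdr, Ptprb, Stab2, Clec4g, Egfl7 and Aqp1, at most 1 UMI summed over the Kupffer cell genes Clec4f, Cd5l and Vsig4, and 0 UMIs of Cd3e, Cd79a, Wnt2, Rspo3 and Wnt9b. These limits kept 634 of the 13374 deposited barcodes, 349 in the library from recipients of Trem2-/- marrow and 285 in the library from recipients of Trem2+/+ marrow. Because the cells were picked on these counts, the levels of the genes in the rule are given as a description only.

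Both libraries came from male C57Bl6/J mice that had been lethally irradiated and whose marrow was replaced by that of Trem2-/- animals or of Trem2+/+ littermates. The mice recovered for 6 weeks and were then fed a methionine/choline-deficient (MCD) diet, a model of non-alcoholic steatohepatitis (NASH), for 4 weeks. Irradiation, transplantation and diet were thus shared by both groups, and only the donor marrow differed. Viable (7AAD-) cells positive for CD45, the surface protein of leukocytes, were sorted from liver, cells of 4 mice per group were combined in equal parts, and each pool was read as 1 library from the 5′ ends of transcripts. The genotype named in the labels is that of the marrow, the cells of the 4 mice in a pool were not separated, and nothing here tells donor from recipient cells. With 1 library per group, no difference between the groups has a replicate check, and no test was made; the intervals below cover counting error only.

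The sinusoids of the liver are lined by a specialised endothelium with open pores and no complete basement membrane, which clears macromolecules from blood through scavenger receptors such as stabilins, the mannose receptor and Fc gamma receptor IIb. These cells are zoned along the axis from portal vein to central vein. Endothelium near the central vein secretes WNT2, WNT9B and the Wnt enhancer R-spondin 3, which maintain the metabolic programme of neighbouring hepatocytes, and it also carries the receptor Kit and thrombomodulin, while endothelium nearer the portal tract is richer in Notch ligands and ephrins. TREM2 is a lipid-sensing receptor known mainly from macrophages and microglia.

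The 349 cells of the Trem2-/- library held a median of 2044 UMIs (range 502 to 16590) and 898599 UMIs in all, and the 285 cells of the Trem2+/+ library a median of 1703 (range 500 to 8564) and 635900 in all. Levels below are UMIs summed over the cells of a set per 1000000 UMIs of that set (CPM), a scale that counts molecules and needs no correction for transcript length. Trem2 (chr17:48346401-48354147 of mm10) stood at 6.19 CPM in all kept cells of the Trem2-/- library and at 204 CPM in those of the Trem2+/+ library, in the direction of the labels. In the Wnt-negative endothelial cells it had 0 UMIs in the Trem2-/- library, with an upper interval limit of 4.1 CPM. In the Trem2+/+ library it had 10 UMIs in 7 cells, or 15.7 CPM (7.54 to 28.9). Outside the leukocyte-rich clusters described below, only 3 of these 10 UMIs remained, or 5.45 CPM. The libraries shared 56 barcode sequences, of which 5 belonged to a member of the set in at least 1 library and 0 to members in both.

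The cells carried the sinusoidal programme at high and closely similar levels in both libraries, far above those of other cells. The 22 sinusoidal identity genes that are not in the rule summed to 19596 CPM in the Trem2-/- library and 17909 CPM in the Trem2+/+ library, against 633 and 740 CPM in the kept cells below the endothelial limit. Of genes that the rule did not use, Selenop, which encodes the selenium carrier of plasma, stood at 10387 and 10149 CPM (Trem2-/- library given first here and below). Igfbp7, a secreted binding protein of vessel walls, stood at 4296 and 4259 CPM, and Gpihbp1, the endothelial anchor of lipoprotein lipase, at 2042 and 2252 CPM. The DNA-degrading enzyme gene Dnase1l3 stood at 1930 and 1936 CPM against 31.0 and 20.3 CPM in other cells, and Oit3, another marker of this endothelium, at 795 and 712 CPM against 5.50 and 3.46 CPM. The tight-junction gene Cldn5 had the highest ratio to other cells of the genes with at least 100 CPM, 333-fold as a mean over the libraries. Gata4, a transcription factor of the sinusoidal state, stood at 176 and 156 CPM against 1.47 and 0.91 CPM. Of the 6 markers that go with the label, Dnase1l3 and Oit3 are thus above other cells without having been used; the other 4 belong to the rule, and their difference was fixed by it.

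Markers of other vessels and of other cells were lower but not all absent. Of 6 lymphatic endothelial genes, only Flt4, which sinusoids share, was abundant (532 and 461 CPM), and 4 of the 6 in the Trem2-/- library and 3 in the Trem2+/+ library had 0 UMIs, including Pdpn and Ccl21a in both. Ptprc, which encodes the CD45 used for the sort, stood at 115 and 104 CPM against 850 and 703 CPM in other cells. Macrophage and monocyte genes summed to 1400 and 2003 CPM against 10672 and 15443 CPM in other cells, and neutrophil genes to 1860 and 1948 CPM against 6483 and 5753 CPM. The cells nearest the limit were the least endothelial: in the Trem2-/- library, the 17 barcodes with exactly 4 endothelial UMIs had 341 CPM of Dnase1l3 and 7512 CPM of the myeloid lysozyme gene Lyz2, against 1988 and 394 CPM in the 303 barcodes with at least 7. In the Trem2+/+ library, the 14 barcodes with 5 endothelial UMIs had 358 CPM of Dnase1l3 and 3135 CPM of Lyz2, against 2088 and 446 CPM in the 238 with at least 7, although the 13 with 4 had only 439 CPM of Lyz2. Just outside the limit, barcodes with 3 endothelial UMIs had 8548 and 12734 CPM of Lyz2.

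**Figure D1:**
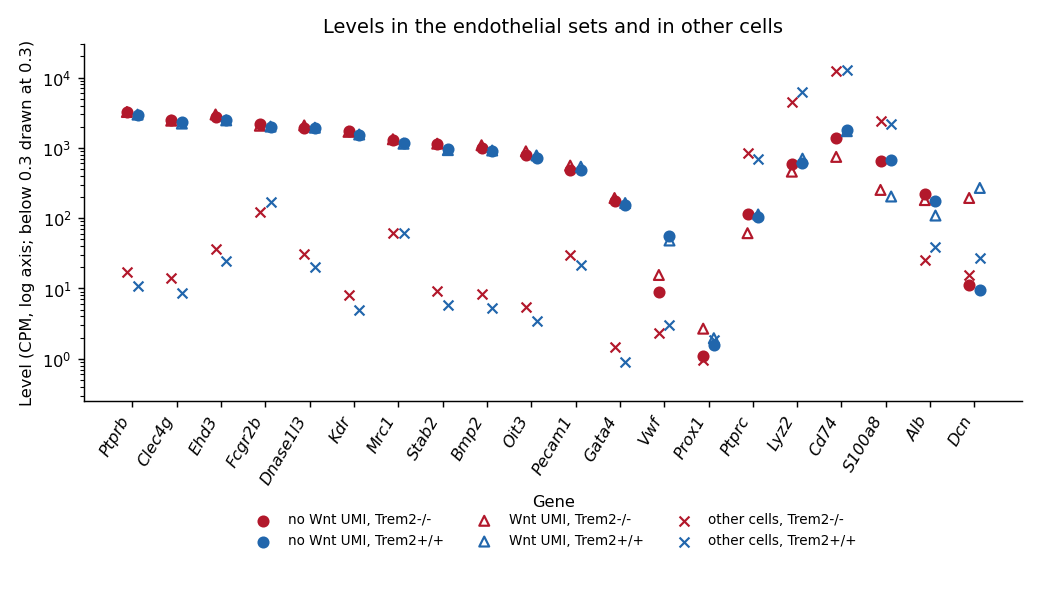
Levels (CPM, log axis) of 20 genes in endothelial cells without a Wnt UMI (filled circles), endothelial cells with a Wnt UMI (open triangles) and other kept cells (crosses), in the Trem2-/- library (red) and the Trem2+/+ library (blue). The sinusoidal genes on the left, such as Dnase1l3 at 1930 and 1936 CPM, lie together in both endothelial sets and far above other cells, while Ptprc, Lyz2, Cd74 and S100a8 are highest in other cells and Dcn is highest in the cells with a Wnt UMI.

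Absence of Wnt UMIs followed the depth of a barcode. Of all 1363 barcodes that met the endothelial, Kupffer and lymphocyte limits, 453 and 276 carried at least 1 UMI of Wnt2, Rspo3 or Wnt9b; these 729 are called Wnt-positive here. They were deeper, with medians of 3669 and 3245 UMIs. The share with a Wnt UMI was 31.5% and 19.3% in barcodes under 1000 UMIs, 36.2% and 35.3% from 1000 to 2000, 59.2% and 59.8% from 2000 to 4000, and 75.4% and 69.8% from 4000 upwards. When the Wnt-positive cells were thinned to 1000 UMIs each (39 and 21 shallower cells left out), only 47.6% (42.7 to 52.5) and 57.3% (50.9 to 63.4) still had such a UMI. In other cells thinned in the same way the share was 0.398% and 0.554% (1.69% and 1.29% unthinned; median depths 2860 and 2436.5 UMIs). A shallow barcode without a Wnt UMI is thus not shown to lack these transcripts, and the Wnt-negative set is a set by detection, not by position in the lobule.

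**Figure D2:**
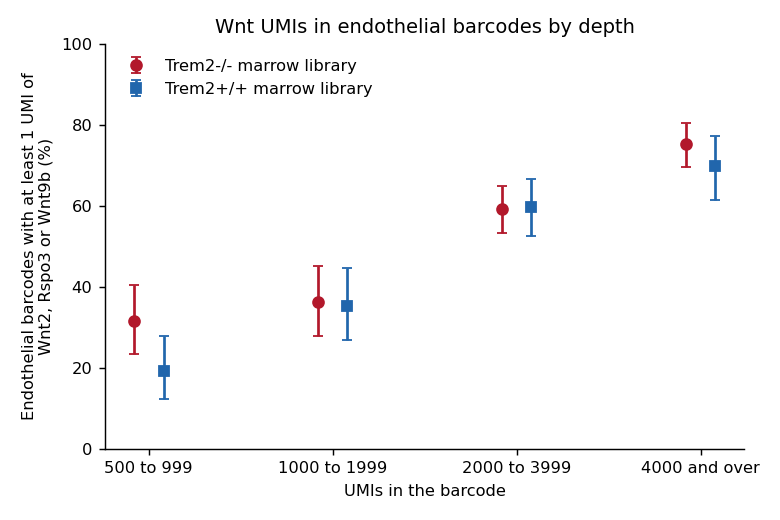
Percentage of endothelial barcodes with at least 1 UMI of Wnt2, Rspo3 or Wnt9b (vertical axis) in 4 classes of UMIs per barcode (horizontal axis), for the Trem2-/- library (red circles) and the Trem2+/+ library (blue squares), with exact binomial 95% intervals. The share climbs from 31.5% and 19.3% in the shallowest class to 75.4% and 69.8% in the deepest.

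Even so, the remaining zonation genes were graded between Wnt-negative and Wnt-positive cells, and in the same direction in each library. Genes measured in either set numbered 6734. Of these, 75 (1.11%) were at least 1.5-fold higher and 88 (1.31%) at least 1.5-fold lower in Wnt-negative cells in both libraries. At any size, 24.2% were higher in both and 30.9% lower in both. Of 13 such central-vein genes other than those of the rule, 13 were lower in Wnt-negative cells in both libraries, 7 of them by at least 1.5-fold in each. Only 10 of the 13 were measured in Wnt-negative cells. The rest entered through Wnt-positive cells, where they are higher, so their lower mean level was fixed by that entry. The count of 7 and the medians include them. The median log2 ratio over the 13 genes was -0.68 in the Trem2-/- library and -0.86 in the Trem2+/+ library, against -0.03 and -0.02 over all genes. Of 14 periportal and arterial genes, 11 were higher and 2 lower in both, with medians of 0.40 and 0.27, and 2 were at least 1.5-fold higher in each. The libraries are 2 pools, so the shared direction is that of 2 samples.

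On the central side, Kit, the stem cell factor receptor, stood at 201 and 192 CPM in Wnt-negative cells and at 332 and 340 CPM in Wnt-positive cells. The log2 ratios were -0.72 (-0.97 to -0.48) and -0.82 (-1.13 to -0.52). Ptgs1, which encodes cyclooxygenase 1, stood at 110 and 113 CPM against 214 and 240 CPM. Thbd, the anticoagulant thrombomodulin, stood at 84.6 and 81.8 CPM against 181 and 175 CPM, and the cadherin gene Cdh13 at 20 and 34.6 CPM against 92.8 and 90.3 CPM. In each of these genes both Wnt-negative values lay below both Wnt-positive values. Fabp4, a fatty acid carrier of endothelium, was also lower, at 1004 and 1033 CPM against 1574 and 1502 CPM. Outside the list, Lgals1 (268 and 313 against 473 and 539 CPM), Ltc4s (225 and 299 against 438 and 427 CPM), Gas6, a ligand of TAM receptors (273 and 209 against 381 and 352 CPM), and S100a10 (437 and 421 against 646 and 652 CPM) followed the same order.

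On the portal side, the scavenger receptor gene Msr1 stood at 286 and 288 CPM in Wnt-negative cells against 162 and 172 CPM in Wnt-positive cells, log2 ratios of 0.82 (0.58 to 1.07) and 0.74 (0.44 to 1.05). Dll4, a Notch ligand of arterial endothelium, stood at 94.6 and 75.5 CPM against 60.1 and 49.1 CPM, and Ltbp4, which binds latent TGF-beta, at 372 and 304 CPM against 288 and 219 CPM. Ly6c1, a surface antigen of larger vessels and capillaries, is on the list of large-vessel genes and not on the periportal one. Its level was 154 and 104 CPM against 37.0 and 37.3 CPM, from 47 and 23 Wnt-negative cells. Thinned to 1000 UMIs per cell, 7.95% and 5.58% of Wnt-negative cells had a Ly6c1 UMI against 3.86% and 2.0% of Wnt-positive cells (unthinned 13.5% and 8.07% against 8.39% and 7.61%). Gja4, a connexin on the periportal and arterial list, went the other way (125 and 131 against 199 and 184 CPM). Igfbp5, which is on neither zonation list, had the highest ratio of the named genes, 41.2 and 192 CPM against 2.68 and 4.91 CPM. It came from 9 and 12 cells, with 18 of 37 and 54 of 122 UMIs in the top cell of each library.

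For part of the genes, the gradient was also present where depth and leukocyte transcripts were matched more closely, in an alternative chosen after the data were seen. In cells with at least 2000 UMIs and no UMI of 7 leukocyte genes (98 and 54 Wnt-negative with median depths of 3378.5 and 3484 UMIs, 204 and 105 Wnt-positive with 3980.5 and 3702 UMIs), the log2 ratio was -0.94 and -0.69 for Kit, -1.16 and -0.95 for Ptgs1, -2.08 and -1.35 for Cdh13, 1.0 and 0.59 for Msr1 and 2.26 and 1.90 for Ly6c1. Fabp4 did not keep its direction there, with -0.58 in the Trem2-/- library and 0.30 in the Trem2+/+ library, nor did Rab3b (-0.81 and 0.43). The central-vein genes Gatm (-0.19 and -0.13), Tcim (-0.10 and -0.09) and Lfng (-0.72 and -1.11) had intervals that include 0 in both libraries. On the periportal list, Notch4 (0.88 and -0.08), Acer2 (0.18 and -0.18) and Clu (-0.74 and 1.09) had opposite signs between the libraries. Intervals of Dll4 (0.48 and 0.44) and Sox17 (0.64 and 0.09) included 0 in both. Sinusoidal genes lay close to 0: Dnase1l3 was at -0.02 and -0.04, Stab2 at 0.08 and 0.11, and Lyve1, a hyaluronan receptor, at -0.06 and -0.12.

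RNA of other cells also differed between the sets. Wnt-positive cells had 194 and 269 CPM of Dcn, the fibroblast and stellate cell gene for decorin, against 11.1 and 9.44 CPM in Wnt-negative cells, and stellate genes summed to 478 and 626 CPM against 156 and 151 CPM. Col1a2, Col3a1, Pdgfrb and Lum, defining genes of stellate cells and fibroblasts, had 0 UMIs in the Wnt-negative cells of both libraries. Neutrophil genes were higher in Wnt-negative cells (6 of 6 in both libraries; sums of 1860 and 1948 against 564 and 424 CPM), but the 11 cells of cluster 5, described below, held 94887 CPM of them and clusters 0 to 3 only 33.0 to 139 CPM. Hepatocyte genes were higher too (10 of 10; sums of 758 and 596 against 558 and 405 CPM). Only 2 of the 6 neutrophil genes and 5 of the 10 hepatocyte genes were measured in Wnt-positive cells. The rest entered through Wnt-negative cells, where they are higher, so their higher mean level was fixed by that entry. The part of transcripts of other cells in the gradient was not tested beyond the depth-matched cells above.

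**Figure D3:**
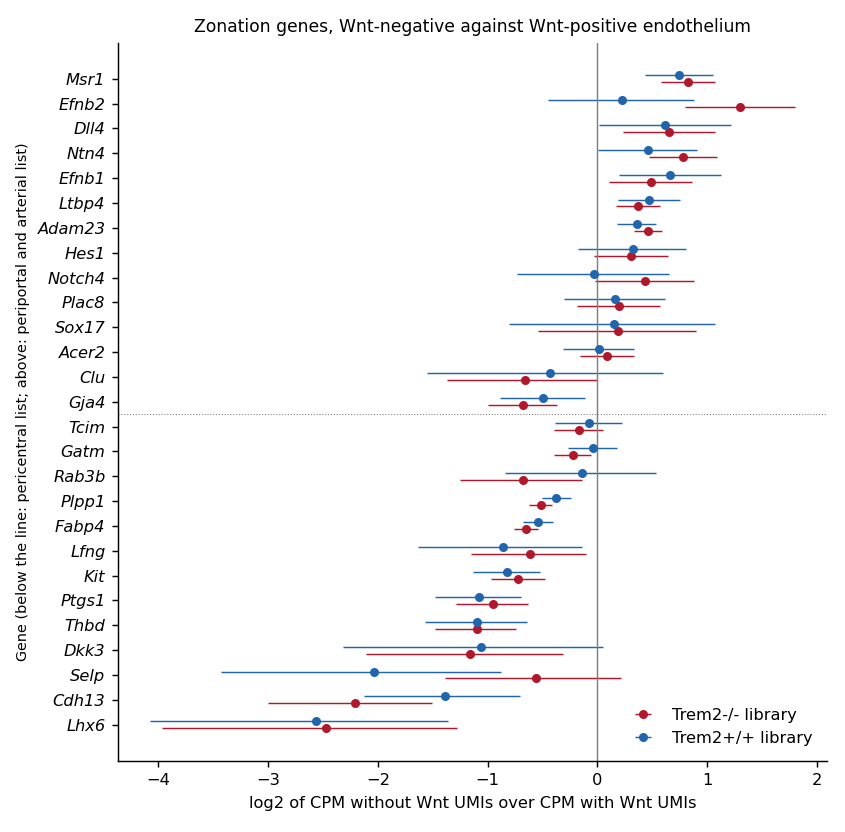
Log2 ratio of the level in Wnt-negative over Wnt-positive endothelial cells (horizontal axis) for 13 central-vein genes (below the dotted line) and 14 periportal and arterial genes (above it), in the Trem2-/- library (red) and the Trem2+/+ library (blue), with exact 95% counting intervals. All central-vein genes lie below 0 in both libraries, and 11 periportal genes lie above 0 in both, with Gja4 and Clu below. Only 10 of the 13 central-vein genes were measured in Wnt-negative cells.

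Among themselves, the Wnt-negative cells fell into 7 clusters when grouped on variable genes other than those of the rule, and none of the clusters was given a cell type name. Cluster 0 (223 cells) was shallow, with a median of 899 UMIs, and was led by Rnase4, a secreted ribonuclease gene, and Ppp1r13b, followed by Lars2 and AY036118, transcripts that overlap ribosomal RNA sequence. Cluster 1 (188 cells) was deep, with a median of 3841 UMIs, and was led by Igfbp5, Vwf, Ly6c1 and Mgp, genes of larger vessels, with Ly6a at 2850 CPM against 1346 CPM in the rest. Igfbp5 UMIs came from only 9 and 12 cells of the whole set, and Vwf and Mgp had 41 and 21 UMIs in this cluster. Igfbp5, Vwf and Mgp thus do not describe most of its cells, and its level of the sinusoidal gene Dnase1l3 was 2280 CPM. Cluster 2 (37 cells) held 54373 CPM of the nuclear RNA Malat1 against 7342 in the rest, 5.62% mitochondrial UMIs, and high Kit (766 against 170 CPM), Egr1 (613 against 131) and Ccl2 (404 against 36.2). Cluster 3 (133 cells) was the least distinct, led by Echs1 at 78.7 CPM against 27.4 CPM in the rest. Clusters 4, 5 and 6 (32, 11 and 10 cells) were led by MHC class II and myeloid genes, by S100a8 and S100a9, and by Ccl5 and Nkg7, and their endothelial markers summed to 3683, 2310 and 7999 CPM against 10166 to 13826 CPM in clusters 0 to 3. These 53 cells, 24 and 29 by library, are referred to as leukocyte-rich, and results that rest on leukocyte genes are also given without them.

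Intervals of the cluster shares overlapped between the libraries. Cluster 0 held 31.2% (26.4 to 36.4) of the cells of the Trem2-/- library and 40.0% (34.3 to 45.9) of those of the Trem2+/+ library, and cluster 1 held 31.5% (26.7 to 36.7) and 27.4% (22.3 to 32.9). Cluster 3 held 23.2% and 18.2%, cluster 2 7.16% and 4.21%, and the leukocyte-rich clusters together 24 of 349 and 29 of 285 cells. Clusters 0 and 1 differ most in depth, and the part of library depth in their shares was not tested.

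The comparison of the libraries asks what the endothelium of these livers expressed when the marrow did or did not carry Trem2. Wnt-negative endothelial cells numbered 5.84% (5.26 to 6.46) and 4.32% (3.84 to 4.84) of kept cells, which gives a log2 ratio of 0.43 (0.21 to 0.65). They were a smaller part of all endothelial barcodes, 43.5% (40.1 to 47.0) against 50.8% (46.6 to 55.0). This part follows depth, and all endothelial barcodes had medians of 2980 and 2599 UMIs. Wnt-positive shares were alike from 1000 to 2000 UMIs (36.2% and 35.3%) and from 2000 to 4000 (59.2% and 59.8%). They differed under 1000 (31.5% and 19.3%) and from 4000 upwards (75.4% and 69.8%). The role of depth was not tested. Endothelium is not the target of a CD45 sort, and Ptprc was low in the Wnt-negative cells. Their share of kept cells is thus that of cells that came through a sort for other cells. The sort and the group cannot be told apart.

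Levels were alike for most genes. Measured genes, those reaching 20 CPM on average and 20 UMIs in sum, numbered 6365. Of these, 404 (6.35%) were at least 1.5-fold higher and 374 (5.88%) at least 1.5-fold lower in the Trem2-/- library, with a median log2 ratio of 0.01. The log2 levels correlated across genes with Pearson r = 0.959, which is over genes and not over replicates. For 157 of the 404 and 151 of the 374 the counting interval excluded equality, and for 8 and 12 it lay wholly beyond 1.5-fold. In Wnt-positive cells, which hold more UMIs, 3.08% of 6427 genes were higher and 3.83% lower. To be named, a gene also needed at least 0.5 of its level in other cells, so some named genes were higher there. Lyn stood at 311 and 299 CPM in other cells, Egr1 at 339 and 376 CPM, and Psme2 at 436 and 402 CPM. Of 1403 genes with at least 100 CPM and 100 UMIs left after the exclusions, 6 were at least 1.5-fold higher and 12 lower.

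Cyp26b1, which encodes an enzyme that degrades retinoic acid, was the clearest of these. With Trem2-/- marrow its level was 941 CPM (interval 879 to 1007) and with Trem2+/+ marrow 462 CPM (interval 411 to 518), so that the log2 ratio was 1.03 (0.83 to 1.22). The gene lies at chr6:84571414-84593908 on the minus strand of mm10. UMIs were spread over 226 of 349 and 123 of 285 cells, with at most 21 and 11 in any cell, and after thinning to 1000 UMIs 51.9% (45.7 to 58.1) and 33.5% (27.0 to 40.6) of cells had 1. Other cells held 6.59 and 2.14 CPM. The ratio was 0.78, 1.0, 1.52 and 0.77 in clusters 0 to 3, and 1.16 (1.02 to 1.31) in Wnt-positive cells, where the levels were 1122 and 501 CPM. It ranged from 0.96 to 1.15 over the alternatives tried. The higher level in the Trem2-/- library was thus shared by both endothelial sets and by every cluster of at least 30 cells outside the leukocyte-rich ones.

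The other higher genes were smaller in difference. Klf4, a transcription factor induced by blood flow, stood at 130 and 84.9 CPM, and Egr1, an immediate-early transcription factor, at 179 and 118 CPM, log2 ratios of 0.62 (0.14 to 1.11) and 0.60 (0.20 to 1.02). Both were also higher in Wnt-positive cells, by 0.50 and 1.04. The ratio of Egr1 was not stable: it was 0.13 (-0.57 to 0.85) after thinning and -0.23 with at least 2 endothelial UMIs. Lyn, a Src-family kinase, stood at 186 and 120 CPM, the nuclear receptor coactivator gene Ncoa3 at 165 and 105 CPM, and Ppp1r16b, a regulatory subunit of protein phosphatase 1 that is abundant in endothelium, at 129 and 84.9 CPM. In Wnt-positive cells the ratios of Lyn and Ncoa3 were 0.14 and 0.17, and intervals of both included 0.

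Among the lower genes, the surface tetraspanin gene Cd9 had levels of 178 CPM (interval 152 to 208) and 300 CPM (interval 259 to 346), and its log2 ratio was -0.75 (-1.07 to -0.44). UMIs were in 107 and 98 cells, and other cells held more Cd9, 245 and 379 CPM, also lower in the Trem2-/- library. Its ratio was -0.41 in Wnt-positive cells, and within the Wnt-negative set it was -1.32 in cluster 1 but 0.06 in cluster 3. Mrpl23, a mitochondrial ribosomal protein gene, stood at 97.9 and 176 CPM, Mgat1, an N-glycan enzyme gene, at 130 and 206 CPM, and G3bp2, a stress granule gene, at 150 and 237 CPM. Slc26a10, Atp6ap1, Smarca5, Pink1, Xaf1 and Psme2 had ratios from -0.70 to -0.59, with between 72 and 158 UMIs in a library. For 6 of the lower genes, Mrpl23, Mgat1, G3bp2, Atp6ap1, Smarca5 and Pink1, the ratio in Wnt-positive cells lay between -0.18 and 0.13.

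Some of the lower values rested on a few cells. Igfbp5, an IGF-binding protein of larger vessels, had 37 UMIs in 9 cells and 122 in 12 cells, or 41.2 and 192 CPM; without the top cell of each library the ratio was -2.34 in place of -2.22, from 19 and 68 UMIs. Vwf, the von Willebrand factor gene of larger vessels, had 8 and 35 UMIs (19 of the 35 in 1 cell), or 8.90 and 55.0 CPM, and 15.6 and 48.1 CPM in Wnt-positive cells. Cxcl10, an interferon-induced chemokine, stood at 183 and 277 CPM, but 71 of the 176 UMIs of the Trem2+/+ library were in 1 cell, and without the top cells the levels were 163 and 167 CPM, a ratio of -0.03. Ly6a, the Sca-1 antigen, had 1732 and 2592 CPM (ratio -0.58, -0.63 without the leukocyte-rich clusters), just short of 1.5-fold, against -0.17 in Wnt-positive cells.

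**Figure D4:**
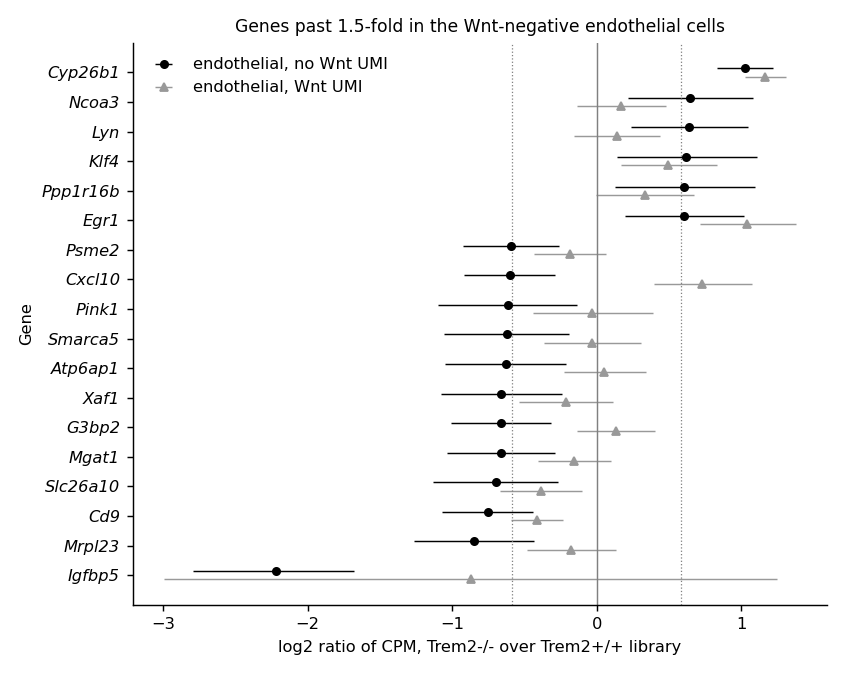
Log2 ratio of CPM in the Trem2-/- over the Trem2+/+ library (horizontal axis) for the 18 named genes, in endothelial cells without (black circles) and with (grey triangles) a Wnt UMI, with exact 95% counting intervals; dotted lines mark 1.5-fold. Cyp26b1 lies at 1.03 and 1.16 in the cell sets, while Cxcl10 lies at -0.60 and 0.73, on opposite sides of 0.

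Genes of endothelial identity differed little between the libraries. Of 22 measured sinusoidal genes, 0 were past 1.5-fold either way, with a median log2 ratio of 0.16 against 0.01 over all genes. Among all genes 6.35% were at least 1.5-fold higher and 5.88% lower, but only 2.25% and 2.73% of those with at least 50 CPM and 50 UMIs. Counts of 0 are thus close to the share of abundant genes and not particular to these lists. The scavenger receptor genes Stab1 (653 and 612 CPM), Stab2 (1152 and 962 CPM), Mrc1 (1314 and 1178 CPM) and Fcgr2b (2206 and 1953 CPM) all stood within 1.5-fold. For scavenger and endocytic genes, 0 of 15 were past 1.5-fold (median 0.04). Of 20 pan-endothelial genes, 0 were past it (median 0.10). Of the receptors for VEGF and angiopoietin, Kdr stood at 1715 and 1522 CPM, Flt1, a decoy receptor for VEGF, at 411 and 329 CPM, Tek, the angiopoietin receptor, at 188 and 190 CPM, and the VEGF coreceptor gene Nrp1 at 746 and 558 CPM (0.42). In the BMP branch, Bmp2 and Bmp6, the endothelial ligands that set hepatic iron hormone output, stood at 990 and 896 CPM and at 171 and 179 CPM. The 10 measured central-vein genes had a median of 0.04, with Cdh13 lower.

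Notch pathway genes lay mostly above 0 in the Trem2-/- library. Of 10 measured genes of the Notch pathway, 4 were at least 1.5-fold higher and 0 lower, beside the 6.35% and 5.88% of all genes, and the median was 0.49. Notch4, the endothelial Notch receptor, stood at 79.0 and 47.2 CPM, a ratio of 0.74 (0.11 to 1.41). Efnb2, which encodes the arterial ephrin B2, stood at 84.6 and 55.0 CPM (0.62), the target gene Nrarp at 77.9 and 48.8 CPM (0.68), and Rbpj, the DNA-binding partner of Notch, at 54.5 and 33.0 CPM (0.72). The ligand gene Dll4 (0.33) and the target Hes1 (0.37) lay above 0 with intervals that include it, and Notch1, at 200.3 and 199.7 CPM, did not differ within counting error. In Wnt-positive cells the Notch median was -0.00, with 0 of 11 genes at least 1.5-fold higher and 1 lower, beside 3.08% and 3.83% of all genes there. Counts were small, from 18 to 85 UMIs in a library for all but Notch1 and Hes1, and without the leukocyte-rich clusters 2 of the 10 were past 1.5-fold and the median was 0.40. Of 14 periportal and arterial genes, which include Efnb2 and Notch4, 2 were at least 1.5-fold higher and 0 lower (median 0.26).

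Most interferon-stimulated genes lay below 0. The type I interferon list summed to 9015 and 10687 CPM in Wnt-negative cells and to 3540 and 4157 CPM in other cells, lower in the Trem2-/- library in each. Of 23 measured genes of the type I interferon response, 5 were at least 1.5-fold lower and 0 higher in the Trem2-/- library, beside 5.88% and 6.35% of all genes; 19 lay below 0, and the median was -0.38. Irf7, the transcription factor that amplifies this response, stood at 59.0 and 113 CPM, a ratio of -0.94 (-1.48 to -0.41). Ifit3, which binds into antiviral complexes with other IFIT proteins, stood at 32.3 and 72.3 CPM (-1.16, -1.89 to -0.46), and Ifi27l2a at 57.9 and 146 CPM (-1.34, -1.86 to -0.83). Xaf1 stood at 105 and 165 CPM and Ifit3b, a close copy of Ifit3 whose reads could be split between the copies, at 21.1 and 37.7 CPM. The most abundant members differed less: Ifitm3, which blocks virus entry at membranes, stood at 2527 and 3233 CPM (-0.36, -0.44 to -0.27), and the virus-tethering gene Bst2 at 1273 and 1613 CPM (-0.34, -0.46 to -0.22), while Ifitm2 (3819 and 4018 CPM) and Ifit1 (33.4 and 33.0 CPM) had ratios of -0.07 and 0.02. In Wnt-positive cells the median was -0.20, with 2 of 23 genes at least 1.5-fold lower, beside 3.83% of all genes there.

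Macrophage transcripts were also lower in the Trem2-/- library, while other leukocyte genes were not uniformly so. Macrophage and monocyte genes summed to 1400 and 2003 CPM in Wnt-negative cells and to 10672 and 15443 CPM in other cells, so both were lower in that library. Of 11 measured in Wnt-negative cells, 8 were at least 1.5-fold lower and 2 higher (median -0.81), beside 5.88% and 6.35% of all genes. The lower ones included C1qa at 36.7 and 101 CPM and Tyrobp at 226 and 395 CPM. Ptprc was at 115 and 104 CPM, T and NK cell genes summed to 295 and 253 CPM, and 1 of 8 pan-leukocyte genes was lower and 0 higher (median -0.18). Without the leukocyte-rich clusters, 2 of 7 measured macrophage genes were lower and 1 higher (median -0.55), beside 6.71% and 7.01% of all genes. The higher one was Csf1r (1.45, 0.13 to 3.03), and the sums were 437 and 652 CPM. In the same cells the interferon median was -0.31 and 5 genes were still at least 1.5-fold lower. Bst2 and Ifitm3 then had ratios of -0.36 and -0.39, Irf7 -0.89, Ifit3 -1.13 and Ifi27l2a -0.87. The part of the remaining leukocyte RNA was not tested.

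Stretches of promoter are shown for the interferon list because 19 of its 23 members lay below 0; sequences are from RefSeq on GRCm38.p6, read 5′ to 3′ in the direction of the gene, within the 250 bases before the start. The core of the interferon-stimulated response element was searched as GAAANNGAAA on both strands (TTTCNNTTTC on the other). Capitals mark the match nearest the start; matches can overlap, and further ones (2 in all for Bst2 and Oas1a and 3 for Isg15, for example) are left in lower case.
Ifit3, chr19:34583397-34583426, plus strand: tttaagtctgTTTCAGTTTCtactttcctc
Ifit3b, chr19:34607793-34607822, plus strand: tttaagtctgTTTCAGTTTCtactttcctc
Ifit1, chr19:34640794-34640823, plus strand: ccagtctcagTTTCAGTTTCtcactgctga
Isg15, chr4:156200865-156200894, minus strand: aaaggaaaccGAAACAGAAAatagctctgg
Bst2, chr8:71537577-71537606, minus strand: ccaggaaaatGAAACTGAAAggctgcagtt
Oas1a, chr5:120907526-120907555, minus strand: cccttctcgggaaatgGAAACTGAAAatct
Stat2, chr10:128270266-128270295, plus strand: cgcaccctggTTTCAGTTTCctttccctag
A promoter was found for 18 of the 23 genes, and 9 of the 18 (50%) held a match, compared with 936 of 27025 genes in the table (3.46%), 177 of 5096 measured genes (3.47%) and 0 of 14 sinusoidal genes. Genes with and without these letters lay at both small and large ratios: Ifit1 (0.02) has a match, as Ifit3 (-1.16) does, and none was found in the window of Irf7 (-0.94) or Xaf1 (-0.66). A match is a description of sequence and not of binding.

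Genes induced by interferon gamma were mixed. Of 18 measured GTPases and regulators, 0 were at least 1.5-fold higher and 3 lower, beside 6.35% and 5.88% of all genes. The 3 were Gbp9, Igtp and Gbp3, each with 31 or fewer UMIs in a library. The median of -0.13 became 0.11 after thinning and 0.13 over all endothelial barcodes. Cxcl9, a chemokine for T cells, stood at 318 and 297 CPM (296 and 227 CPM without the top cells, 1 of which held 46 of the 189 UMIs of the Trem2+/+ library), and was higher in Wnt-negative than in Wnt-positive cells in both libraries (209 and 157 CPM there). Of 19 measured class I presentation genes, Psme2 was lower and Tap2 higher (87.9 and 53.5 CPM), and H2-K1 (1680 and 1623 CPM) and B2m (3140 and 3468 CPM) stood close together. MHC class II genes were lower (9 of 9 below 0, 2 of them by at least 1.5-fold beside 5.88% of all genes, median -0.39), with Cd74 at 1363 and 1771 CPM. In the 581 cells outside the leukocyte-rich clusters Cd74 was at 276 and 383 CPM. The sign of the class II list depended on the endothelial limit (median 0.20 with at least 8 endothelial UMIs).

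**Figure D5:**
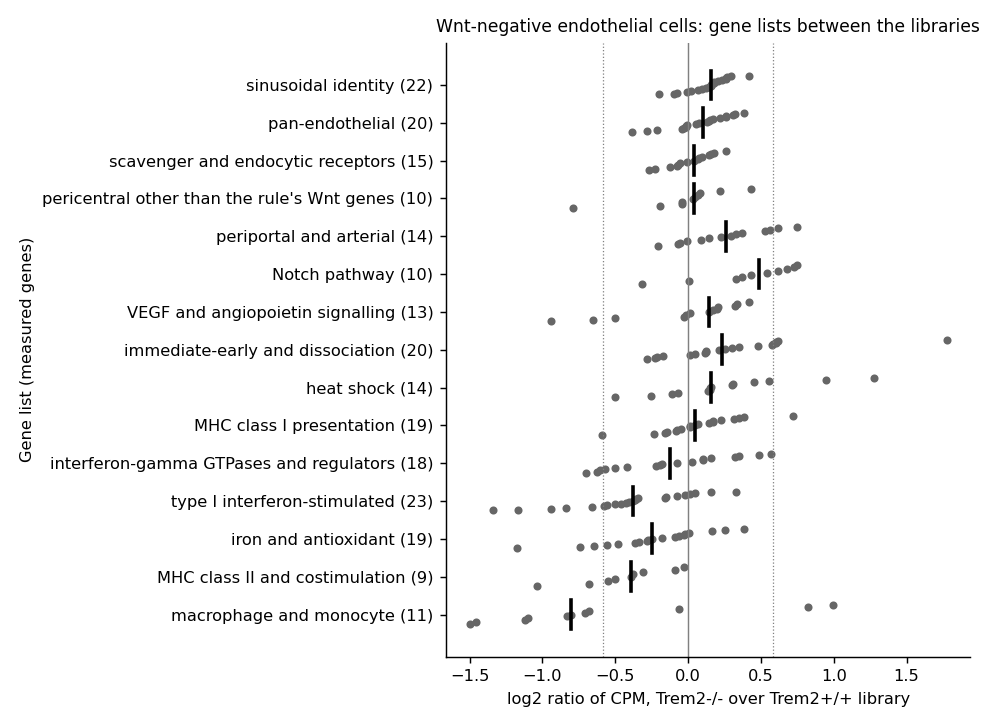
Log2 ratio of CPM in the Trem2-/- over the Trem2+/+ library (horizontal axis) for the measured genes of 15 lists in Wnt-negative endothelial cells; points are genes, black bars list medians, and dotted lines mark 1.5-fold. Sinusoidal genes sit in a narrow band around their median of 0.16, the Notch median lies at 0.49, and the medians of type I interferon and macrophage genes lie at -0.38 and -0.81.

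Immediate-early genes, which respond quickly to stress such as tissue dissociation, lay mostly above 0 (16 of 20), and of the heat shock genes mainly a pair of copies was higher. Of 20 measured immediate-early genes, 4 were at least 1.5-fold higher (Egr1, Klf4, Fosb and Nr4a2) and 0 lower (median 0.23), beside 6.35% and 5.88% of all genes, with Fos at 326 and 234 CPM and Jun at 409.5 and 275 CPM. Without the leukocyte-rich clusters the median was 0.36. Nr4a2, a nuclear receptor gene, had only 29 and 6 UMIs (32.3 and 9.44 CPM) and lay on the other side of 0 in Wnt-positive cells (6.98 and 21.6 CPM). Of 14 heat shock genes, Hspa1a (87.9 and 45.6 CPM) and Hspa1b (72.3 and 29.9 CPM), near-identical copies whose reads cannot be assigned with certainty, were higher and 0 lower (median 0.15). Handling of the pools and the group cannot be told apart.

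Iron and antioxidant genes lay mostly below 0, and lipid genes were mixed. Of 19 iron and antioxidant genes, 15 lay below 0, 3 by at least 1.5-fold (0 higher; 5.88% and 6.35% of all genes), with a median of -0.25. Without the leukocyte-rich clusters 1 of 18 was lower (median -0.20), and in Wnt-positive cells 0 were past 1.5-fold either way. Fth1, the ferritin heavy chain, stood at 1546 and 2581 CPM (-0.74), with 284 of 1641 UMIs of the Trem2+/+ library in 1 cell, and at 1150 and 1434 CPM (-0.32) without the leukocyte-rich clusters. The light chain gene Ftl1 stood at 3243 and 3935 CPM (-0.28), Prdx1 at 691 and 966 CPM (-0.48), and the iron exporter gene Slc40a1 at 161 and 208 CPM (-0.36). Other cells had more of these transcripts and were also lower in the Trem2-/- library. The list summed to 15178 and 26255 CPM there, against 9691 and 12123 CPM in Wnt-negative cells, and Ftl1 stood at 4809 and 8497 CPM. The part of RNA from other cells in the lower levels was not tested. Of 17 lipid genes, 1 was higher and 3 lower (median -0.07, but 0.035 by mean over cells), including the droplet coat gene Plin2 (79.0 and 120 CPM), while the fatty acid receptor gene Cd36 (793 and 832 CPM) differed within counting error. Apoe stood at 1746 and 2309 CPM, with 162 UMIs of the Trem2+/+ library in 1 cell, and its ratio of -0.40 was -0.17 without the leukocyte-rich clusters.

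Some large ratios were those of genes of other cell types or rested on 1 cell. Of 4 measured haemoglobin genes, 4 were higher in the Trem2-/- library, with Hbb-bs at 206 and 37.7 CPM, but 155 of its 185 UMIs were in 1 cell. The proliferation gene Mki67 had 37 and 9 UMIs, 20 of the 37 in 1 cell. Hepatocyte genes lay mostly above 0 (9 of 10, 3 by at least 1.5-fold beside 6.35% of all genes, median 0.36), with Alb at 220 and 178 CPM against 25.2 and 39.2 CPM in other cells, and Hamp, the iron hormone gene of hepatocytes, at 73.5 and 36.2 CPM (1.02, 0.32 to 1.77).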

How the data were processed

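Each library was deposited as unnormalised UMI counts of 32285 genes in droplet barcodes. Per the file headers, the software was Cell Ranger, version 5.0.1. The genome was mm10, per the submitters' processing notes, and no source used here names the annotation release. Groups follow the genotype label. UMIs were summed over cells and divided by the set's total (CPM), with exact Poisson intervals; log2 ratios have exact conditional binomial intervals and shares exact binomial ones, at 95%. No test was made. A gene counts as measured when it reaches 20 CPM on average and 20 UMIs in sum. Named genes are up to 12 highest and 12 lowest ratios among genes with at least 100 CPM and 100 UMIs and at least 1.5-fold, up to 20 per side for Wnt-negative against Wnt-positive cells, and list members. That ranking leaves out Trem2, the rule's genes, receptor, haemoglobin, mitochondrial, ribosomal, sex-linked, hepatocyte and unnamed genes, and those under 0.5 of the level in other cells. The genes shown with the top cell removed, and the singling out of Ly6a, were chosen after their values were seen. Members and lists were chosen with earlier results of these data known. No doublet caller was run; barcodes with Kupffer, T or B cell UMIs were left out by the rule, so doublets with other cells can remain. Cells were clustered with scanpy 1.11.5 (1000 variable genes, 15 components, 15 neighbours, resolution 0.6). Coordinates are from GENCODE on mm10. The scripts were tested on simulated data. Alternatives changed limits, scaling, depth and genes counted; those without leukocyte-rich clusters, without Gm42418, AY036118 and Lars2, and with at least 2000 UMIs were chosen after the data were seen. Depth limits precision: with 898599 and 635900 UMIs, 3 UMIs equal 3.34 and 4.72 CPM.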

Additional observations from a re-analysis of the deposited data

Results flagged for a closer look

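Cxcl10 had opposite directions in the endothelial sets: its log2 ratio of the Trem2-/- over the Trem2+/+ library was -0.60 (-0.92 to -0.29) in Wnt-negative cells and 0.73 in Wnt-positive cells, and each interval excludes 0. The difference between the sets was not tested, with 1 library per group. In Wnt-negative cells 71 of the 176 UMIs of the Trem2+/+ library lay in 1 cell, and without the top cell of each library the ratio there was -0.03 (-0.40 to 0.35).
Nr4a2, an immediate-early gene, was also opposite: its log2 ratio was 1.77 (0.48 to 3.33) in Wnt-negative cells, from 29 and 6 UMIs, and -1.63 (-2.74 to -0.58) in Wnt-positive cells, a difference that was likewise not tested.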

How the results depend on the processing

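Of 405 list medians under the alternatives, 386 lay within 0.2 of the reported value, and 39, over 14 of 27 lists, had the opposite sign, most of them for lists with medians near 0 (interferon gamma, large-vessel, central-vein, junction and adhesion genes among them, which have no stable direction here). Of 270 values of named genes, 2 had the opposite sign. The type I interferon median ranged from -0.51 to -0.24, the Notch median from 0.23 to 0.54 and Cyp26b1 from 0.96 to 1.15. Among medians of at least 0.2 in size and named genes, sign changed for the MHC class II median with at least 8 endothelial UMIs (0.20), the cell cycle median after thinning (-0.0073), Egr1 with at least 2 endothelial UMIs (-0.23) and Cxcl10 over all endothelial barcodes (0.011). The cause was not tested. Genes at least 1.5-fold higher and lower numbered 668 and 632 by mean over cells, 97 and 126 over all endothelial barcodes (more cells), 75 and 91 among genes of at least 50 CPM and 50 UMIs, and 1282 and 1099 at 5 CPM and 5 UMIs. The log2 ratio of shares of kept cells was 0.66 over all endothelial barcodes and 0.74 among cells of at least 2000 UMIs. Higher genes were 51.9% of those past 1.5-fold, 43.5% over all endothelial barcodes and 56.9% with at least 2 endothelial UMIs. The MHC class II median ranged from -1.77 to 0.20. Depth limits genes near 20 UMIs, whose intervals span more than 1.5-fold. No paired analysis was possible because each group is 1 pooled library.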
